A study of Mus musculus with 6 samples.

Results

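The nuclear factor I family comprises 4 genes, Nfia, Nfib, Nfic and Nfix, each of which encodes a transcription factor. Its members were taken as every probe set (a group of short oligonucleotides summarised as 1 value) that the platform annotation gives to these genes alone. This gave 23 of the 45101 probe sets on the array, 6 for Nfia, 7 for Nfib, 5 for Nfic and 5 for Nfix. The family was chosen by the difference between genotypes in Nfix, which an earlier look at these arrays had found higher in Fz4-/- kidneys on most of its probe sets. Genotype differences of the members are therefore given as a description, with their errors and without p-values.

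Kidney rudiments of mouse embryos at E13.5 were profiled on 6 Affymetrix MOE430.2 arrays, 3 from Fz4-/- and 3 from Fz4+/+ embryos, in pairs of litter mates from 3 litters. No other allele, agent or treatment is named for either genotype, and the strain and the number of embryos in a sample are not given in the sources used here. P-values measure only the spread between these samples, which may in part be technical. All values are log2 RMA signals, in which a difference of 1 is a doubling, and each array's median lay between 6.62 and 6.74. Fzd4, the gene that encodes Fz4, read 3.58 to 6.22 in Fz4-/- and 10.31 to 11.21 in Fz4+/+ on its brightest probe set. The first principal component held 70.8% of the variance and separated both samples of litter 3 (48.7 and 70.1) from the other 4 (-48.9 to -0.10). The second set the Fz4+/+ sample of litter 2 apart, at -32.7 against -10.5 to 20.1. Of the marker lists of kidney cells, 12 of 12 nephron progenitor genes, 15 of 16 stromal genes and 14 of 18 ureteric epithelium genes lay above the filter on low signal, whereas the podocyte gene Nphs1 did not.

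Nuclear factor I proteins bind DNA as dimers through a conserved N-terminal domain and recognise a palindrome of TTGGC and GCCAA that are separated by 5 bases. A single TTGGC is bound more weakly. Members can activate or repress transcription, and their C-terminal parts, which splicing varies, differ between the genes. They are best known for gliogenesis and brain development (Nfia, Nfib and Nfix), lung maturation (Nfib), tooth root formation (Nfic) and the switch to fetal muscle (Nfix). Loss of 1 copy of NFIA in people is associated with brain malformations and urinary tract defects, which ties the family to the organ measured here.

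Of the 23 probe sets, 18 passed the filter, a mean over all arrays at or above the 40th percentile of all probe sets (5.89 log2). The 5 below it were 1421162_a_at and 1427733_a_at of Nfia, 1422565_s_at and 1450661_x_at of Nfic and 1451443_at of Nfix, with means of 4.02 to 5.76. The nearest probe sets on either side were 1450661_x_at of Nfic at 5.76 and 1416293_at of Nfib at 6.06. Every Nfib probe set passed. Levels of different probe sets are not compared, because probes differ in how well they bind. The plot of all members by array shows that the probe sets of 1 gene often moved in different ways.

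**Figure D1:**
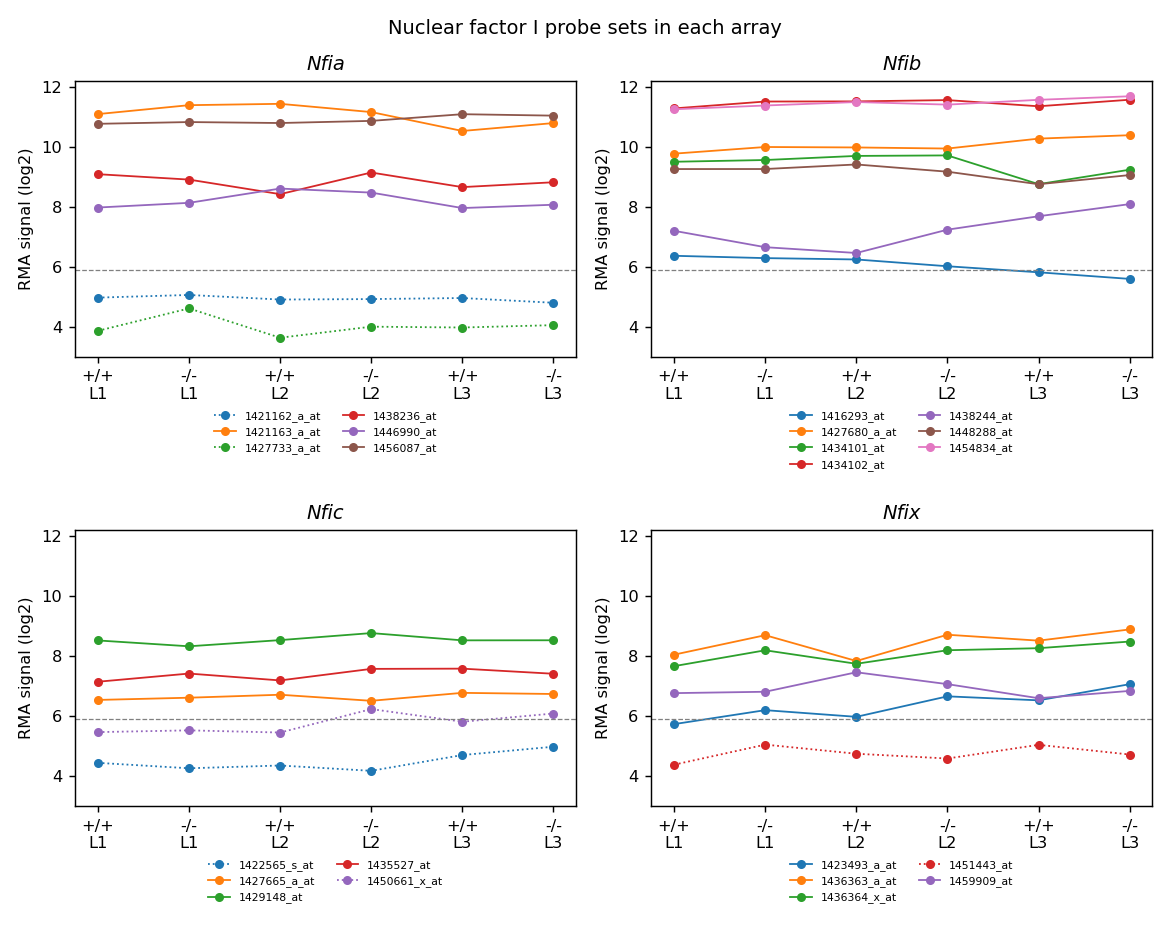
RMA signal (log2, vertical axis) of all 23 nuclear factor I probe sets in each array, 1 panel a gene, with the arrays of litters L1 to L3 side by side for Fz4+/+ and Fz4-/-. Points are single arrays, lines join the arrays of 1 probe set, dotted lines mark the 5 probe sets below the filter and the dashed line is the filter at 5.89. The Nfix probe sets 1436363_a_at, 1436364_x_at and 1423493_a_at are higher in Fz4-/- in each litter.

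Nfix, which drives the fetal muscle programme and limits proliferation of neural progenitors, had the largest genotype differences of the family. On 3 of its 4 tested probe sets the Fz4-/- sample was above its Fz4+/+ litter mate in all 3 litters, on the fourth in litters 1 and 3. Over all tested probe sets, 14.2% were higher in Fz4-/- in all 3 litters and 7.32% were lower in all 3, and since Nfix was chosen on this contrast nothing is read from its count. On 1436363_a_at, its brightest probe set, the signal in litters 1 to 3 was 8.70, 8.72 and 8.89 in Fz4-/- and 8.05, 7.84 and 8.52 in Fz4+/+. All Fz4-/- readings were above all Fz4+/+ readings, which held for 2.42% of tested probe sets (the reverse held for 1.21%). The mean was 8.77 ± 0.11 (SD, n = 3) against 8.14 ± 0.35 (SD, n = 3), a difference of 0.63 ± 0.19 (SE of limma's fit), or 1.55-fold. Here and below, the SE comes from the fit with genotype alone, which does not use the pairing and so includes the spread between litters. The Fz4+/+ sample of litter 3 was the nearest to the Fz4-/- samples, and that of litter 2 the farthest.

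The second bright Nfix probe set, 1436364_x_at, is annotated to the same source sequence as 1436363_a_at, so the pair do not measure Nfix independently. It read 8.20, 8.20 and 8.49 in Fz4-/- and 7.67, 7.75 and 8.27 in Fz4+/+, a difference of 0.40 ± 0.19 (SE). Here the genotypes overlapped, because the Fz4+/+ sample of litter 3 was above the Fz4-/- samples of litters 1 and 2. Probe set 1423493_a_at, of another source, read 6.20, 6.66 and 7.07 in Fz4-/- and 5.73, 5.98 and 6.53 in Fz4+/+, a difference of 0.56 ± 0.29 (SE). Within litters 1 to 3 the difference was 0.47, 0.68 and 0.54, a narrower range than the spread between litters, and the genotypes again overlapped across litters.

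Probe set 1459909_at did not share this pattern. It read 6.81, 7.07 and 6.84 in Fz4-/- and 6.77, 7.46 and 6.60 in Fz4+/+, a difference of -0.04 ± 0.24 (SE), and its highest reading was the Fz4+/+ sample of litter 2, where 1436363_a_at had its lowest. Below the filter, 1451443_at read 5.05, 4.59 and 4.72 against 4.38, 4.74 and 5.04, higher in Fz4-/- in litter 1 and lower in litters 2 and 3. Which transcripts of Nfix each probe set reads was not analysed here. Averaged over the 4 tested probe sets, Nfix differed by 0.42, 0.40 and 0.34 in litters 1 to 3. The same averages were 0.08, 0.10 and 0.12 for Nfia, 0.0017, 0.04 and 0.20 for Nfib, and 0.05, 0.14 and -0.07 for Nfic. The average was thus above 0 in every litter for Nfix, on which the family was chosen, and also for Nfia and Nfib. For Nfib litter 1 was almost at 0, and no single tested probe set of Nfia was higher in all 3 litters. Of single probe sets over the array, 14.2% were higher in all 3 litters. The share for averages over all genes was not computed, so nothing is read from this count. The Nfib value in litter 2, 0.04, was within the gap between that litter's array medians, 6.68 in Fz4-/- and 6.62 in Fz4+/+.

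The RefSeq promoter table used here (GRCm38.p6) holds 4 starts of Nfix, numbered along the gene, 1 of Nfia and 1 of Nfic. TTGGC was searched on both strands in the 300 bases around each start (250 before and 50 after). No match lay in the Nfia or Nfic window or at the first Nfix start, and the other Nfix windows held 1, 1 and 2 matches. A match was found in 46.7% of 32851 such windows, and the full palindrome in 12 of them, none of which was of Nfia, Nfic or Nfix. The matches are shown on the strand of the gene because they are the letters that the proteins of this family recognise, with TTGGC or its reverse complement GCCAA in capitals. They lie on the minus strand at chr8:84775987-84776015, chr8:84773366-84773394, chr8:84772864-84772892 and chr8:84772856-84772884, in that order, and the last pair overlap.
Nfix start 2: ggatcttttgttTTGGCtcaccccaggcg
Nfix start 3: cagaatcaggcgTTGGCtttgccgggtgc
Nfix start 4, first match: cttctgggggcaGCCAAacattggccagt
Nfix start 4, second match: ggcagccaaacaTTGGCcagtccggacaa
A match is a description of these letters only, since binding was not measured.

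Nfia, a driver of gliogenesis, had smaller mean differences on its tested probe sets than the 3 Nfix probe sets higher in every litter. The errors are too wide to show that the genotypes were equal. The 4 tested probe sets of Nfia differed by 0.03 to 0.23, and none of the 4 was higher in all 3 litters. Probe set 1421163_a_at read 11.39, 11.16 and 10.80 in Fz4-/- and 11.10, 11.44 and 10.53 in Fz4+/+, a difference of 0.10 ± 0.27 (SE), with the Fz4-/- sample lower in litter 2 and higher in the others. Probe set 1456087_at read 10.83, 10.87 and 11.05 against 10.77, 10.80 and 11.09, and so differed by 0.03 ± 0.13 (SE). Probe set 1438236_at differed by 0.23 ± 0.20 (SE) and had the widest split between litters, at -0.18, 0.72 and 0.16. The difference of 1446990_at was 0.04 ± 0.22 (SE). Below the filter, 1427733_a_at read 4.61, 4.004 and 4.05 in Fz4-/- and 3.87, 3.63 and 3.98 in Fz4+/+, with no overlap, and 1421162_a_at read 4.80 to 5.06 over all arrays.

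Nfib, which is needed for lung maturation, read between -0.17 and 0.21 in its 7 genotype differences, with 6 above 0. Its brightest probe set, 1434102_at, read 11.52, 11.56 and 11.58 in Fz4-/- and 11.29, 11.52 and 11.36 in Fz4+/+, a difference of 0.16 ± 0.11 (SE), higher in Fz4-/- in each litter. Probe set 1434101_at was also higher in each litter, by 0.06, 0.02 and 0.48. In contrast, 1416293_at was lower in each, by -0.08, -0.23 and -0.22, with readings of 6.29, 6.02 and 5.60 against 6.37, 6.25 and 5.82. The other Nfib probe sets differed in sign between litters, as the plot of differences within litters shows, most of all 1438244_at at -0.55, 0.78 and 0.40.

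Nfic, which is required for tooth root formation, had the smallest median difference of the 4 genes, 0.01 over its 3 tested probe sets against 0.48 for Nfix, 0.10 for Nfib and 0.07 for Nfia. Its brightest probe set, 1429148_at, read 8.33, 8.77 and 8.53 in Fz4-/- and 8.52, 8.54 and 8.53 in Fz4+/+, so that nearly all of its spread lay in the Fz4-/- samples. Probe set 1435527_at differed by 0.16 ± 0.15 (SE) and 1427665_a_at by -0.06 ± 0.12 (SE). Below the filter, 1450661_x_at read 5.52, 6.23 and 6.09 in Fz4-/- and 5.47, 5.45 and 5.81 in Fz4+/+, higher in each litter, whereas 1422565_s_at, annotated to the same source sequence, was higher only in litter 3.

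**Figure D2:**
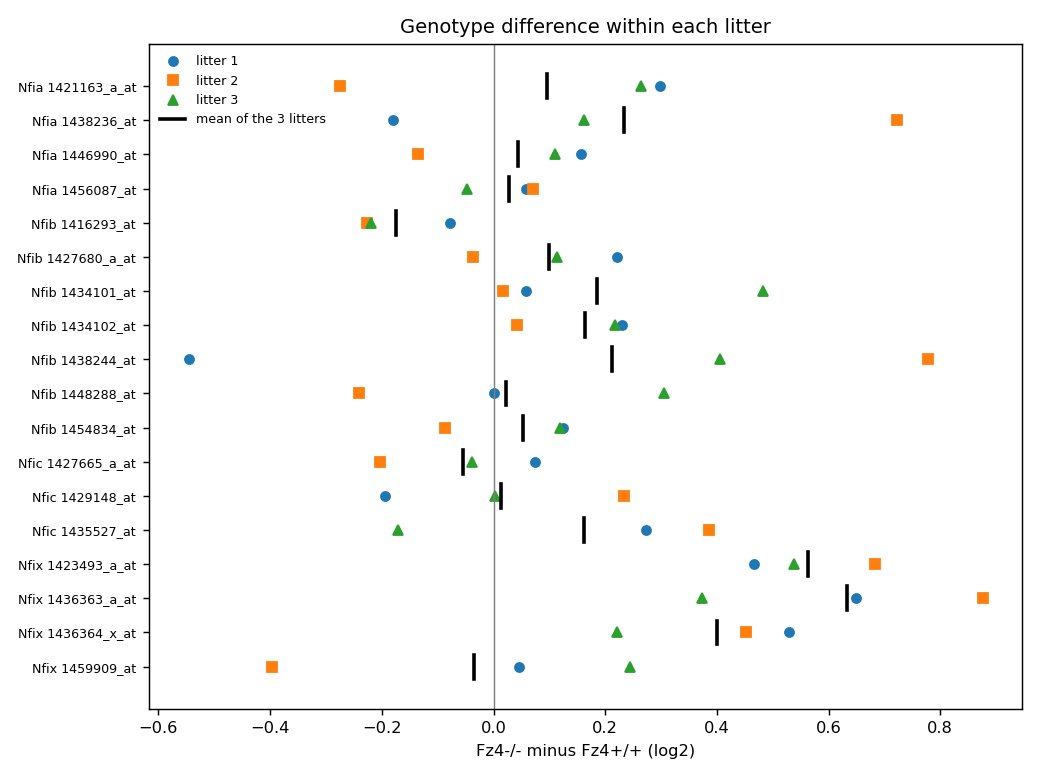
Fz4-/- minus Fz4+/+ (log2, horizontal axis) of the 18 tested nuclear factor I probe sets within each litter. Circles, squares and triangles are litters 1, 2 and 3, and the black bar is the mean of the 3. For 1423493_a_at, 1436363_a_at and 1436364_x_at of Nfix every litter lies above 0, from 0.22 to 0.88, while most other probe sets have litters on both sides.

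Across the family 15 of 18 tested probe sets were above 0, or 83.3%, with a median difference of 0.10, beside 61.6% and a median of 0.03 over all 27022 tested probe sets. After quantile normalization these shares were 66.7% and 53.7%, because 1446990_at of Nfia, 1448288_at of Nfib and 1429148_at of Nfic lay just below 0 (-0.0066, -0.01 and -0.04). Over all probe sets limma called 0% at an adjusted p under 0.05, with 239 at an unadjusted p under 0.05 (841 with litter as a further term). Fzd4 itself, which differed by -6.16 on its brightest probe set, was not called either (limma's adjusted p = 0.999988). The absence of a call in this fit therefore does not show the absence of a difference.

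The members also varied between litters, a contrast that the choice of the family did not use. Genotype and litter are balanced here, so the litters were compared with limma's F test with genotype as a further term. None of the 18 tested members passed (adjusted p of 0.145 to 0.691), nor did any other probe set, which makes the background 0%. At an unadjusted p under 0.05 there were 7 of 18 members and 6225 of 27022 probe sets (23.0%). The 7 were 1421163_a_at and 1446990_at of Nfia, 1416293_at, 1427680_a_at and 1434101_at of Nfib, and 1423493_a_at and 1436364_x_at of Nfix. With a variance prior that follows the signal and is robust to outliers, the same test called 2990 of 27022 probe sets and 3 of 18 members. These were 1421163_a_at (adjusted p = 0.0412), 1427680_a_at (adjusted p = 0.0420) and 1434101_at (adjusted p = 0.0257). Without litter 2 the test called 3032 of 27022 probe sets and 1 of 18 members, 1423493_a_at of Nfix (adjusted p = 0.0346).

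Nfib probe sets ran in opposite directions along the litters. In 3 of the 7, both litter 3 samples were above the other 4 arrays, and in another 3 both were below them, beside 36.9% and 15.5% of all tested probe sets. The 3 higher ones were 1427680_a_at (litter means of 9.89, 9.97 and 10.34), 1438244_at (6.93, 6.85 and 7.89) and 1454834_at (11.32, 11.46 and 11.63). The 3 lower ones were 1416293_at (6.33, 6.13 and 5.71), 1434101_at (9.54, 9.71 and 9.0002) and 1448288_at (9.26, 9.30 and 8.91). Of the last 3, 1416293_at and 1448288_at share a source sequence. Probe sets 1434101_at, 1434102_at and 1454834_at also share one, yet litter 3 was lowest on the first, intermediate on the second and highest on the third. The level of Nfib in litter 3 relative to the others thus depended on the probe set, and averaged over all 7 the litter means were 9.24, 9.28 and 9.28.

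**Figure D3:**
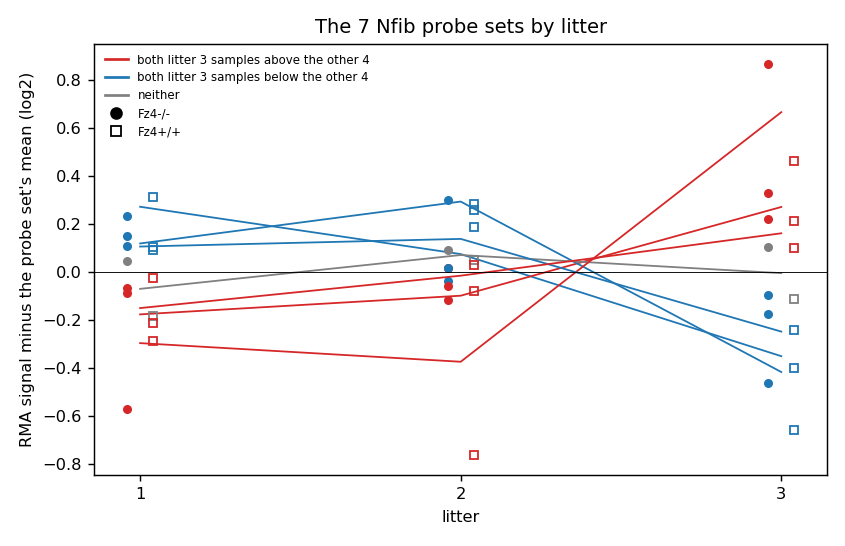
Signal of the 7 Nfib probe sets (log2, centred on each probe set's mean, vertical axis) in the 3 litters, with filled circles for Fz4-/- and open squares for Fz4+/+. Lines join the litter means of 1 probe set and imply no order of litters. Red marks the 3 probe sets with both litter 3 samples above the other 4, blue the 3 with both below, and grey 1434102_at.

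The same split was seen between 2 bright probe sets of Nfia. Both litter 3 samples were the lowest on 1421163_a_at (litter means of 11.25, 11.30 and 10.67) and the highest on 1456087_at (10.80, 10.83 and 11.07). For Nfix, the litter means on 1423493_a_at were 5.97, 6.32 and 6.80, the widest range of its tested probe sets. On 1436364_x_at they were 7.93, 7.97 and 8.38, with both litter 3 samples on top. On Nfic the tested probe sets ranged over no more than 0.23 between litter means, beside a median of 0.33 over all tested probe sets. Over the family, 6 of 18 members had litter 3 on top and 4 had it at the bottom, beside 36.9% and 15.5% of all tested probe sets.

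Genes whose proteins act with the family or whose promoters it is reported to bind in other tissues were examined in the genotype fit, with 1 probe set a gene (the brightest). Of 27 reported targets 18 were tested, 12 were above 0 and 6 below, with a median of 0.05 and 0 past the threshold by limma. Among all 12535 genes so tested the share above 0 was 63.5% and the median difference 0.03. Fabp4, a fatty acid binding protein of fat and endothelial cells, read 10.995, 11.29 and 11.35 in Fz4-/- and 10.70, 10.31 and 10.80 in Fz4+/+, without overlap, at 0.61 ± 0.18 (SE; limma's adjusted p = 0.999988). Hes1, a Notch target that Nfia represses in neural progenitors, read 8.75, 8.74 and 8.29 against 8.40, 8.27 and 8.30. Its difference was 0.27 ± 0.15 (SE; limma's adjusted p = 0.999988), nearly all of it from litters 1 and 2. Myh7, a slow myosin that Nfix represses in fetal muscle, read 6.25, 5.54 and 6.32 against 6.12, 6.41 and 6.98, and so differed by -0.46 ± 0.30 (SE). Apcdd1, a Wnt inhibitor that Nfia and Sox9 activate in glia, differed by 0.14 ± 0.16 (SE). Gfap, Mmd2, Ckm, Ren1, Gabra6, Wnt7a, Sp7, Dspp and Sftpc were not tested, as they lay below the filter or had no probe set of their own.

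Among 10 partners and regulators 5 were tested. All 5 lay above 0 (median 0.04) and 0 passed the threshold. Foxa1, a pioneer factor that binds with Nfib in prostate, had the largest difference, 0.54 ± 0.28 (SE), from 6.95, 7.47 and 6.53 against 6.35, 6.20 and 6.77. It was higher in Fz4-/- in litters 1 and 2 and lower in litter 3. Ski, a corepressor, differed by 0.05 ± 0.12 (SE), the acetyltransferase gene Crebbp by 0.04 ± 0.18 and Sox9, a partner of Nfia and a kidney tip regulator, by 0.04 ± 0.19. Among 11 tested proliferation genes 8 lay above 0 (median 0.03) and 0 passed the threshold, and Tk1, Aurka, Mcm3 and Mcm5 differed by 0.13, 0.14, -0.10 and 0.06.

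The array order of Nfix was set beside marker lists of the cells in the kidney, as means of the genes tested. In bulk samples, fewer cells of a type and less RNA per cell cannot be told apart. The ureteric epithelium list (14 of 18 genes, with Cldn4, Upk1b and Upk3a among those not tested) read 9.64, 9.77 and 9.78 in Fz4-/- and 9.54, 9.27 and 9.67 in Fz4+/+. Like 1436363_a_at, it was highest in the Fz4-/- sample of litter 3 and lowest in the Fz4+/+ sample of litter 2, and it was higher in Fz4-/- in each litter, by 0.10, 0.50 and 0.11. Of its genes 12 were above 0 and 2, Ret and Wnt11 of the tips, below. The early nephron list (11 of 12 genes) was also lowest in that Fz4+/+ sample, at 9.24 against 9.52 to 9.80, and the podocyte list at 8.96 against 9.20 to 9.45. The endothelial list (12 of 12 genes, 9 above 0) was lowest there too, at 8.90, and was higher in Fz4-/- in each litter, by 0.17, 0.22 and 0.000808. Means of the erythroid and macrophage lists were also lowest in that sample, but in litter 3 they were lower in Fz4-/-, by -0.998 and -0.353. The part of these cells in the Nfix difference was not tested.

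The stromal, nephron progenitor and striated muscle lists had other array orders. Renal stroma (15 of 16 genes) read 10.67, 10.79 and 10.88 in Fz4-/- and 10.53, 10.82 and 10.86 in Fz4+/+. Nephron progenitors (12 of 12) read 9.40, 9.55 and 9.46 against 9.48, 9.52 and 9.67. Striated muscle (13 of 14 genes, without Ckm) ran the other way in litter 2, at 6.25 in Fz4-/- and 8.34 in Fz4+/+, with 7.45 to 7.69 in the other arrays. The Fz4+/+ sample of litter 2, lowest for 1436363_a_at, also had the highest excess of 3' over 5' signal for actin (0.90 log2, against 0.64 to 0.86), a measure that grows as RNA degrades. For Gapdh it read 0.90, as did the Fz4+/+ sample of litter 3, against 0.75 to 0.86 in the rest. Without that sample the difference of 1436363_a_at was 0.48.

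**Figure D4:**
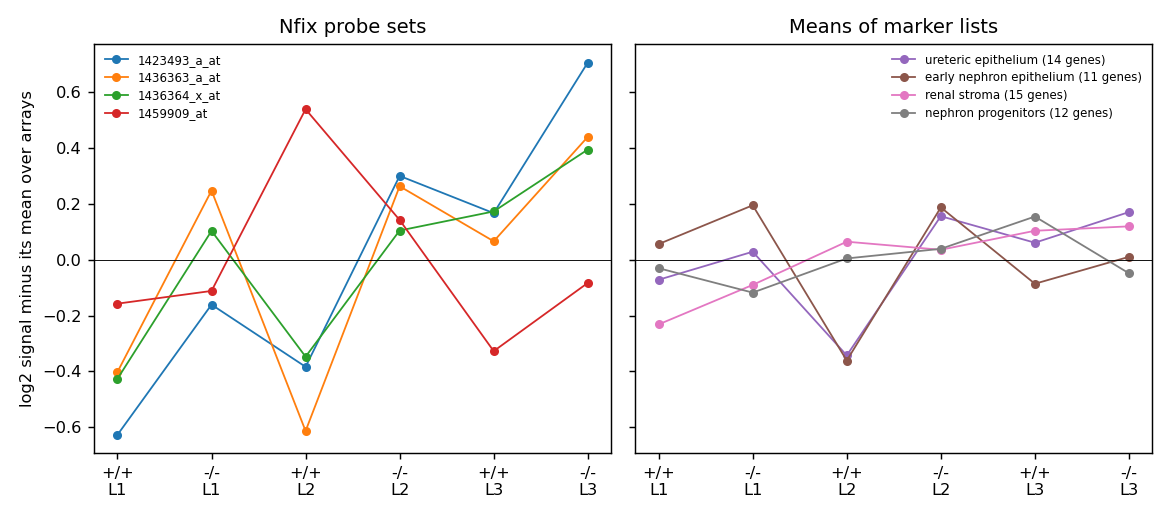
Signal of the 4 tested Nfix probe sets (left) and mean signal of 4 marker lists (right) in each array, as log2 values centred on their mean over the 6 arrays (vertical axis), for Fz4+/+ and Fz4-/- of litters L1 to L3. Points are single arrays. The ureteric and early nephron lists are lowest in the Fz4+/+ array of litter 2, as is 1436363_a_at, whereas 1459909_at is highest there.

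The genes most like each member over the 6 arrays were found by the root mean square difference of log2 values, each gene centred on its own mean, among 12531 genes. For Nfix (1436363_a_at) they were Myo5c, an unconventional myosin, Sgpp2, a sphingosine phosphate phosphatase, and Slc22a23, of the organic ion transporter family, at 0.10, 0.11 and 0.11, beside a median gene of 0.36. Myo5c read 7.88, 7.90 and 7.94 in Fz4-/- and 7.37, 7.12 and 7.88 in Fz4+/+, so that it too was lowest in the Fz4+/+ sample of litter 2. For Nfia (1421163_a_at) they were the progesterone receptor gene Pgr at 0.06, Ccdc130 at 0.09 and Tacc1 at 0.10, all lowest in the Fz4+/+ sample of litter 3. For Nfib (1434102_at) Ogfrl1, the receptor phosphatase gene Ptprd and Baz2b lay at 0.04 each, and for Nfic (1429148_at) Zc4h2, the telomere protein gene Terf1 and Desi2 at 0.02, 0.02 and 0.03. The profiles of Nfib and Nfic varied little, by 0.11 and 0.13 about their means, so small distances are easily reached there. The likeness describes 6 arrays that share litters and is not a test.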

How the data were processed

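Whole kidneys at E13.5 were profiled on 6 arrays. The authors deposited log2 RMA values per probe set, as the submitters' processing notes state without a version. The values were used as deposited. RMA makes array distributions nearly equal and compresses differences near background. Scanner files were not analysed here and no detection call was made. Precision is limited by the 6 arrays. The platform annotation named 34958 probe sets by 1 gene, 932 by several and 9211 by none, and only the first were named. Of these 34754 matched RefSeq genes (GRCm38.p6) by Entrez number, with 0 symbols changed.

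After 64 control probe sets were left out, 27022 were tested with limma 3.58.1 in R 4.3.3 (two-sided, Benjamini-Hochberg, threshold 0.05), with genotype as the sole term, or with genotype and litter and an F test over litters. The fits were checked on simulated data. For the genotype fit these held no spread between litters, unlike the arrays here, so the check was more favourable than the data. Equal replicate numbers mark litter mates per the labels and hence pair the arrays, whose deviations from their genotype's mean correlated by 0.577, 0.178 and 0.809 in litters 1 to 3. All members were named, with up to 4 genes of each list by unadjusted p and the 3 genes most like each member. The family, lists, tests and alternatives were chosen with earlier results of these data known.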

Additional observations from a re-analysis of the deposited data

How the results depend on the processing

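The 3 Nfix probe sets higher in Fz4-/- in every litter stayed above 0 under all alternatives run. They lay between 0.35 and 0.84 for 1423493_a_at, 0.48 and 0.82 for 1436363_a_at and 0.29 and 0.59 for 1436364_x_at. The mean of the 4 tested Nfix probe sets differed by 0.39. The count of Nfix probe sets higher in every litter, 3 of 4, was 3 to 4 when 1 sample or litter 2 or 3 was left out (the litters were added after the data were seen). Leaving out a sample removed its litter from this count, which could then only stay or rise, so it is no check. The family's 15 of 18 above 0 was 11 to 14 without single samples, 14 without litter 2 or 3, and 15 with the litter as a replicate block, which left 0 calls over all probe sets and changed no call. Of 250 differences under alternatives, 3 moved by over 1 SD and 27 changed sign, none of them of those 3 Nfix probe sets. These 250 include the mean of each gene's tested probe sets. Array weights gave 2 calls over all probe sets, 0.20 for the stromal list and -1.35 for striated muscle, with weights of 8.81 and 2.99 for Fz4-/- in litter 2 and Fz4+/+ in litter 1. Without single samples calls stayed at 0, target and partner genes above 0 at 13 to 15 of 22 (16 in all), the ureteric list at 0.124 to 0.326, the stromal list at -0.06 to 0.11 and striated muscle at -0.90 to -0.20. The litter test called 3 probe sets with the stricter filter, 3 without the genotype term, 2990 with the other variance prior and 3032 without litter 2. The cause was not tested. Low probe sets have no detection call, so their differences are limited by background.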
